A study of Mus musculus with 2 samples.

Results

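T and NK cells of the chronically injured mouse liver were picked from single-cell RNA sequencing by their own marker genes. The class held 100 of the 7334 cells of the CCl4 library that had at least 800 UMIs (unique molecular identifiers, counts of captured RNA molecules) and at most 30% of them from mitochondrial genes, which was 1.36% of these cells (exact binomial 95% interval 1.11 to 1.66%). The 2 libraries of the series together held 14757 cell barcodes. Members were chosen by their UMIs of Cd3e, Cd3d, Cd3g, Trac, Trbc2, Nkg7 and Klrb1c, of which at least 4 were required in sum, with no UMI of Csf1r, Cd79a or Siglech and at most 10 of Col1a1. Values of these 11 genes are therefore given as a description of the choice.

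Each condition had 1 library, made with the 3' droplet method of 10x Genomics. Livers came from Col1a2CreER:Rosa26tdTomato mice, in which a tamoxifen-activated Cre driven by the Col1a2 promoter turns on a red reporter, and both the healthy and the CCl4-injured group carried these alleles. Per the study's methods, the mice had a C57BL/6 background, fibrosis was induced in males and females aged 8 to 10 weeks by intraperitoneal CCl4, a toxin activated in hepatocytes, given 2 times per week for 12 weeks, and magnetic beads took out most CD45-positive cells, the class described here among them, before capture in both groups. The labels call the samples whole liver cells and name neither the bead step, the number of mice pooled nor any CCl4 dose. With 1 library per condition no test between conditions was possible, and the intervals below cover counting error only.

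T cells recognise antigen through a receptor of alpha and beta or gamma and delta chains that signals through the CD3 proteins and kinases such as Lck and Zap70. NK cells lack CD3 and signal through activating receptors. These pair with adaptor proteins such as those encoded by Tyrobp (DAP12) and Fcer1g (Fc receptor gamma chain), the latter a partner of Ncr1 (NKp46). The liver is known for many resident NK, innate-like T and CD8 T cells, which release chemokines, interferon gamma and cytotoxic granule proteins.

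The marker sum left a sparse zone at the limit. Among the CCl4 cells that met the other steps, 2533 had no UMI of the 7 marker genes and 61 had 1 to 3, while 79 of the 100 members had at least 10. The sum was 4 in the lowest member, 19 in the median member and 65 in the highest. Just inside the limit, 5 members had a sum of 4, and all 5 had a UMI of Ptprc, which encodes CD45, 4 had one of Skap1, an adaptor of the T cell receptor pathway, 2 of Il2rb and 2 of Ccl5. Just outside it, 7 cells had a sum of 3, of which 5 had Ptprc, 0 Skap1, 2 Il2rb and 2 Ccl5. In all, 118 cells had the marker sum, 5 of which were dropped for Csf1r, Cd79a or Siglech and 13 for Col1a1. Members had a median of 4320 UMIs (1523 to 33876) and 1504 genes.

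**Figure D1:**
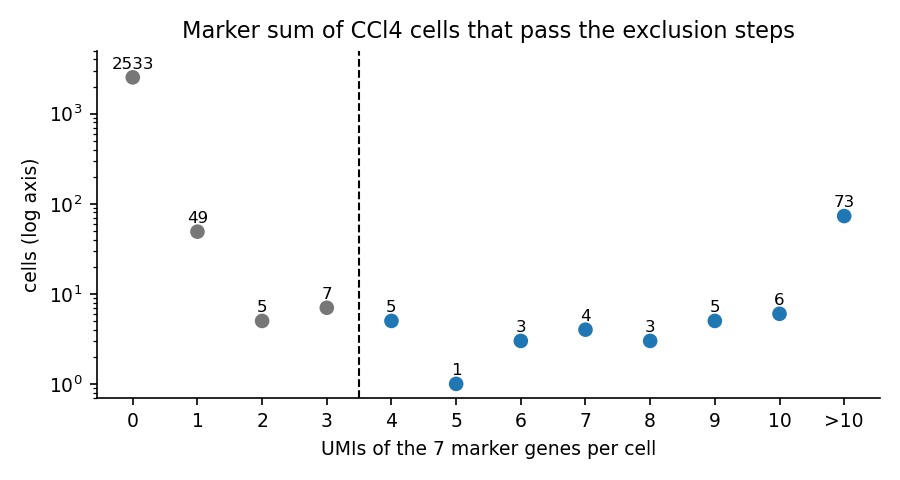
Number of CCl4 cells (log axis) at each sum of UMIs of the 7 marker genes, for cells that pass the exclusion steps; grey points lie under the limit of 4 UMIs and blue points are members. Few cells lie next to the limit, with 7 at a sum of 3 and 5 at a sum of 4, against 2533 at 0 and 73 over 10.

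The label was first checked on genes outside the rule. Ptprc was detected in 89 of 100 members and Il2rb, the shared receptor chain for interleukins 2 and 15, in 77. Of the rule genes, whose detection the choice of members fixed, Trbc2 had a UMI in 78 members, Nkg7 (a cytotoxic granule protein) in 86 and Cd3g in 71. In Col1a1-high mesenchymal cells, which should lack these genes and had a median of 15107 UMIs, the shares with a UMI were 0.895% for Ptprc, 0.298% for Il2rb, 0.522% for Trbc2, 0.522% for Nkg7 and 0.323% for Cd3g. Of 11 marker lists of other cell classes, the macrophage list (10 genes, 4 of them, Adgre1, C1qa, C1qb and Ms4a7, at 0) reached 0 to 5 UMIs per member with a median of 0, against a median of 64 in macrophages and monocytes. The neutrophil list ranged from 0 to 16 UMIs and the B and plasma cell list from 0 to 4, both with a median of 0. Mesenchymal genes were found at a low level throughout, with a median of 3 UMIs per member over 11 genes, against 411 in mesenchymal cells.

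A group of 7 members carried at least 10 UMIs of a marker list of another cell class, the widely present mesenchymal list left aside, and these cells were set apart after their values were seen. Among CD3-negative members, 2 cells had 111 and 140 UMIs of Mcpt8 and 213 and 134 of Prss34, both proteases of basophil granules, with no UMI of Klrb1c or Ncr1. Another CD3-negative cell had 229 UMIs of Mpo, 208 of Prtn3, 144 of Elane and 125 of Ctsg, the granule enzymes of neutrophil precursors, and entered the class by 24 UMIs of Nkg7 alone. These 3 cells go against the label. Of the 4 CD3-positive cells set apart, 1 with 33876 UMIs had 832 UMIs of Saa3, 558 of C3 and 21 of the mesothelial gene Upk3b, 1 had 8 UMIs of Kdr and 11 of Pecam1, both endothelial genes, and 2 had 39 and 12 UMIs of hepatocyte genes. Of the 430 cells with the highest doublet scores 3 were members, and the part of doublets in these values was not tested.

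CD3-positive cells made up most of the class. The 3 CD3 genes had a UMI in 78 of the 100 members (78%, exact binomial 95% interval 68.6 to 85.7%), and 77 of the 78 had at least 2. A further 21 members (13.5 to 30.3%) had no CD3 UMI and at least 1 of Nkg7, and 1 member had neither. The CD3-negative cells had a median of 5092 UMIs and the CD3-positive cells one of 3887. Per cell, the CD3 sum ran from 1 over a median of 8 to 22 in CD3-positive members.

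The adaptor genes of NK receptors, which the rule did not use, separated most of the same cells. Tyrobp and Fcer1g together had 3 to 53 UMIs in each of the 21 CD3-negative cells, with a median of 17. Both ends of this range were set-apart cells, and the 18 not set apart had 5 to 27 UMIs with a median of 15. In CD3-positive cells the sum was 0 in 66 of 78, 1 or 2 in 3 and at least 3 in 9, with a highest value of 48. The ranges overlapped through these 9 cells. The cutoff of 3 equals the lowest CD3-negative value, so it fixes that the remaining 69 lie below every CD3-negative cell. Macrophages and monocytes, which also use these adaptors, had a UMI of Fcer1g in 86.6%. Of the 10 macrophage markers 6 had UMIs in the class and 4 had none, 12 members had any, and the list summed to 88.8 CPM in CD3-negative cells (at most 3 UMIs a cell) and 35.6 CPM in CD3-positive cells (at most 5). The part of macrophage RNA in the adaptor values was not tested. Ncr1 had a UMI in 15 of 21 CD3-negative cells (71.4%) and in 7 of 78 CD3-positive cells (8.97%), and all 7 of the latter were among the 9 with adaptor UMIs. Without those set apart, Ncr1 was seen in 15 of 18 CD3-negative cells.

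**Figure D2:**
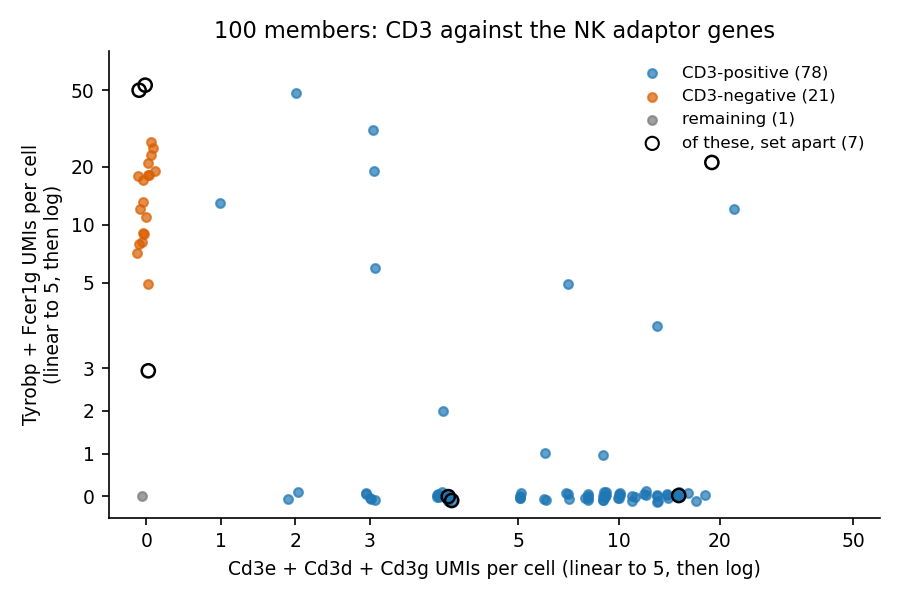
UMIs of the 3 CD3 genes (x axis) and of Tyrobp plus Fcer1g (y axis) in each of the 100 members, both axes linear to 5 and logarithmic above, with small random offsets; ringed points are the 7 members set apart. The 21 CD3-negative cells (orange) lie at 3 or more adaptor UMIs, and 66 of the 78 CD3-positive cells (blue) lie at 0.

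The 9 CD3-positive cells with NK adaptors had high NK receptor sums beside mostly low CD3 sums. Their CD3 sums ran from 1 to 22 with a median of 3, and 5 of the 9 had a sum of at most 3. Neither Trac nor Trbc2 was seen in 4, each of which had Trbc1 (13 and 4 UMIs) or Trdc (1 to 4 UMIs). Among the 9 cells was 1 set-apart cell with hepatocyte genes. Summed over the 18 NK receptor genes, they had 8283 CPM (UMIs of a gene per 1000000 UMIs of the cells summed), against 1309 in the other 69 CD3-positive cells and 7797 in the 18 CD3-negative cells not set apart. Per cell this was 21 to 120 UMIs with a median of 36, against 0 to 26 with a median of 4 in the other CD3-positive cells, so the ranges met only between 21 and 26 UMIs. The 9 cells were split off by 2 of these 18 genes, which makes this a description. The interleukin-7 receptor gene Il7r had no UMI in any of the 9 and a UMI in 31 of all 78 CD3-positive cells, Lef1 and Cd40lg had none in the 9 either, and Bcl11b was seen in 2 of them. Trdc, the constant gene of the delta chain, was seen in 4 of the 9, and 1 of the 9 with 14189 UMIs was also the leading cell for Gzma (127 UMIs) and for the mitotic gene Top2a (20 UMIs).

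Receptor chain genes were described next. Trac, the alpha constant gene, had a UMI in 55 of 78 CD3-positive cells (70.5%) and in 2 of 21 CD3-negative cells. Trdc was found in 8 CD3-positive cells (10.3%, interval 4.53 to 19.2%) with 1 to 11 UMIs, in no CD3-negative cell, and in no cell that had Trac. At least 1 gamma constant gene (Tcrg-C1, Tcrg-C2 or Tcrg-C4) was seen in 34 CD3-positive cells (43.6%) and 12 CD3-negative cells (57.1%), of which Tcrg-C4 had 45 and 21 UMIs. Trbc1, a beta constant gene, was also present in 15 of the 21 CD3-negative cells. Trbc1 and Trbc2, the Tcrg-C genes, the Klr families, and Ccl3 and Ccl4 have near-identical copies, and how reads were divided between copies is uncertain.

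Most CD3-positive cells had no coreceptor UMI. CD8 (Cd8a or Cd8b1, partners of the receptor on cytotoxic T cells) was found in 21 of 78 (26.9%, interval 17.5 to 38.2%), Cd4, the helper cell coreceptor, in 6 (7.69%, 2.88 to 16%), both in 0 (which allows up to 4.62% of cells with a UMI of both, and sets no limit on cells that express both) and neither in 51 (65.4%, 53.8 to 75.8%). The levels were low, with at most 7 UMIs of Cd8a, 8 of Cd8b1 and 3 of Cd4 in a cell. Mesenchymal cells had a UMI of Cd8a in 0.0497% and of Cd4 in 0.124%. With each cell thinned to 1500 UMIs, which left out no CD3-positive member, 20.2% had CD8 and 76.6% neither, so the share without a coreceptor UMI moved with depth. Median depths were 3476 UMIs for CD8, 4450 for CD4 and 4336 for cells with neither.

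The coreceptor groups are given side by side, since 6 CD4 cells are too few for ratios and 1 of them is the cell with mesothelial genes. Klrd1 (CD94, an NK receptor chain) was seen in 11 of 21 CD8, 0 of 6 CD4 and 26 of 51 cells without coreceptor. Klrk1 (NKG2D) was seen in 3, 0 and 29 of them, and the gamma chain gene Tcrg-C4 in 0, 0 and 25. Ccl4 was seen in 10, 0 and 9. Gzmk, a granzyme, had 12 UMIs in 6 cells, 5 of them CD8. Lef1, a transcription factor of naive T cells, was seen in 8 CD8, 1 CD4 and 8 cells with neither. Cxcr6, a chemokine receptor of liver-resident lymphocytes, was seen in 8 CD8, 3 CD4 and 34 cells with neither, and 7 of the 17 Lef1 cells had it.

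CD3-positive and CD3-negative cells were then compared over all genes, as a ratio of CPM summed over 365589 and 112672 UMIs, with counts under 3 raised to 3. Of 2059 genes with at least 30 UMIs, 167 (8.11%) were at a ratio of 2 or more and 134 (6.51%) at 0.5 or less, and the median log2 ratio was -0.05. Without the 7 cells set apart these were 103 (6.2%) and 90 (5.42%) of 1661 genes. With TMM scaling factors the counts were 222 and 92, so that 70.7% of the genes past the fold were higher in CD3-positive cells, against 55.5% with plain totals, and the median of all genes moved from -0.05 to 0.15. Cells of 1 library are not replicates, and no test was made.

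Genes of the receptor complex list were higher in CD3-positive cells. Its 4 measured genes were the receptor chain gene Trbc1 and the adhesion and costimulatory genes Cd2, Cd27 and Cd28, all at a ratio of 2 or more (median log2 1.27), and 2 of 4 were without the cells set apart (median 0.99). Trbc1 itself had a ratio of 2.44, and 1.97 without those set apart, although it was seen in 56.4% of CD3-positive and 71.4% of CD3-negative cells. Cd28, the costimulatory receptor, had 194 CPM against 62.1 CPM (ratio 3.13), with UMIs in 38 and 4 cells. Of 9 proximal signalling genes 3 were past the fold and 0 in the other direction (median 0.86). Lat, the adaptor that links the receptor to its effectors, had a ratio of 3.43 in all members and of 5.29 (interval 1.99 to 19.9) without those set apart. Sh2d1a, the SAP adaptor, had 41 UMIs in 31 CD3-positive cells and 0 in CD3-negative cells. With that 0 raised to the floor of 3 counts over the group its ratio was 4.21, with a counting interval that starts at 3.27. Lck, by contrast, was at 219 and 169 CPM, a ratio of 1.30 whose interval includes 1.

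Of 7 measured lineage transcription factors 3 were past the fold (median 0.89), and 1 of 6 without those set apart. Bcl11b, required for T cell identity, had 71 UMIs in 44 CD3-positive cells and 3 in 2 CD3-negative cells (ratio 7.29, interval 2.40 to 36.2). Lef1 had 33 UMIs against 0 (ratio 3.39 at the same floor, interval from 2.61). Sh2d1a, Lef1 and Cd40lg reached the minimum of 30 UMIs through CD3-positive cells alone. Bcl11b, Ly6a, Cd2, Cd27, Cd28, Lat and Ms4a6b also met it by their CD3-positive UMIs, with 1 to 8 UMIs each in CD3-negative cells. The minimum thus leans towards genes higher in CD3-positive cells, and these ratios are a description. Of 6 measured genes of the naive and recirculating list 4 were past the fold towards CD3-positive cells (median 1.15). Among them were Klf2 (ratio 2.69) and Satb1 (2.21), while Il7r was at 0.812. Gata3, the type 2 lineage factor, had 30 and 5 UMIs (ratio 1.85), Tbx21 (T-bet) 18 and 4, and Eomes, its relative in NK and CD8 cells, 19 UMIs in 8 cells against 1 UMI. Of the 22 members with Ncr1, 3 had a UMI of Tbx21 and 2 of Eomes, at a depth where single UMIs decide. Ms4a6b, a membrane protein of T cells, had 133 and 8 UMIs (ratio 5.12), and Ly6a (Sca-1) had 72 UMIs in 35 cells against 1 UMI (interval of the ratio 3.86 to 889). Cd40lg, the helper ligand for CD40, had 39 UMIs in 20 CD3-positive cells against 0, and of its 21 member cells 18 had no coreceptor UMI, 1 had Cd4 and 1 had CD8.

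NK receptor genes were lower in CD3-positive cells, a direction the rule leans towards, since it required Nkg7 of CD3-negative cells only. Of 10 measured genes 6 were at 0.5 or less and 0 at 2 or more (median log2 -1.26), and 8 of 10 without the cells set apart (median -1.53). Fcer1g had 227 against 1775 CPM (ratio 0.128) and Tyrobp 219 against 1544 CPM (ratio 0.142). Ncr1 had 73.9 against 453 CPM (ratio 0.163), and 14 of its 27 CD3-positive UMIs came from 1 cell. Klrb1b and Klrb1a, of the NK1.1 family of the rule gene Klrb1c, had 4 against 35 and 14 against 31 UMIs (ratios 0.0352 and 0.139). Klrd1 was at a ratio of 0.368, while Il2rb was at 533 and 541 CPM. With the 9 adaptor-bearing CD3-positive cells counted on the other side, the median of the list was -2.05. Those cells were picked by Tyrobp and Fcer1g, which belong to this list, so that median is a description.

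Chemokine genes were the list furthest towards the CD3-negative cells, with 3 of 4 measured genes at 0.5 or less (median log2 -2.07). Ccl5 (RANTES) was the most abundant, with 2587 UMIs in 78 members and per-cell values from 0 to 141, and its ratio was 0.658 (4820 against 7322 CPM). Every CD3-negative cell not set apart had at least 10 UMIs of Ccl5 and at least 1 of Xcl1, the ligand that attracts cross-presenting dendritic cells. Xcl1 had a median of 1 UMI in CD3-positive cells and of 7 in CD3-negative cells, with overlapping ranges (0 to 13 and 0 to 29), and a ratio of 0.360. Ccl3 and Ccl4, inflammatory chemokines, depended on the set-apart cells with basophil proteases, which held 139 and 107 of the 347 CD3-negative Ccl3 UMIs. The Ccl3 ratio was 0.0417 with and 0.128 (interval 0.0885 to 0.183) without those set apart, and the Ccl4 ratio 0.158 and 0.245.

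**Figure D3:**
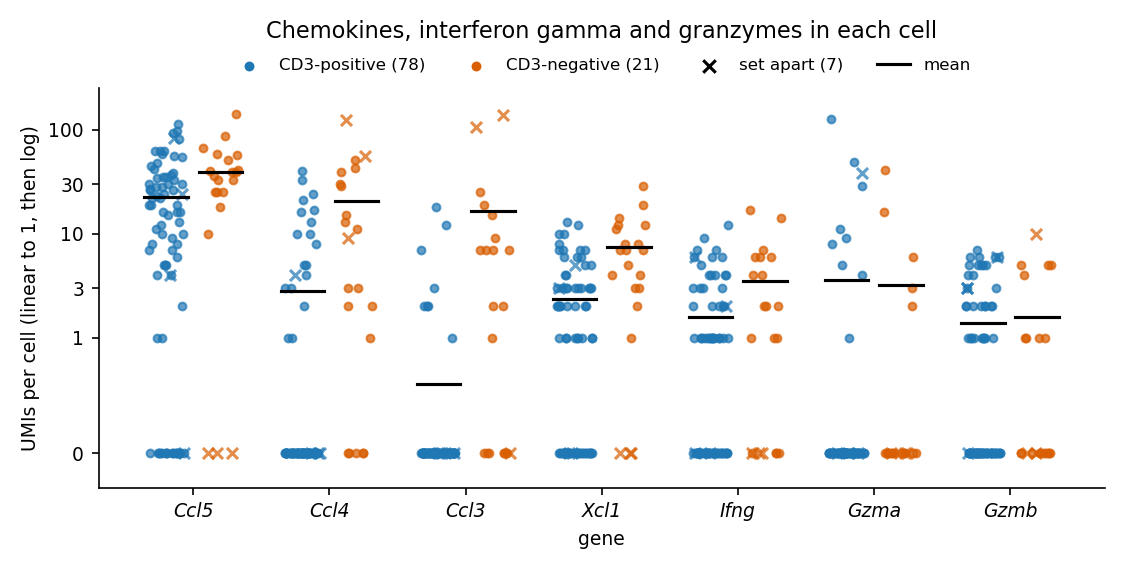
UMIs per cell (linear to 1, then logarithmic) of 4 chemokines, interferon gamma and 2 granzymes in the 78 CD3-positive (blue) and 21 CD3-negative (orange) members; crosses mark cells set apart and black lines the mean of each group. Ccl5 reaches 113 and 141 UMIs in the 2 groups, Gzma lies at 0 in 68 and 16 cells, and the highest Ccl3 values are crosses.

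Cytotoxic genes were spread over both subsets. Over the granule list the 9 adaptor-bearing CD3-positive cells summed to 7443 CPM. The other 69 had 1762 CPM and the 18 CD3-negative cells not set apart 3461 CPM. Gzma gave a large part of the 7443 CPM, with 127, 49, 38, 29 and 11 UMIs in 5 of the 9 cells. The cell with 38 was the set-apart one with hepatocyte genes, and no sum without Gzma was made. Of 10 measured granule genes 3 were at 0.5 or less and 0 at 2 or more (median log2 -0.67). With the 9 cells counted on the other side the median was -1.23, Gzma was at -4.50 and Prf1 at -3.73 on the log2 scale. Gzmb had 293 CPM in both subsets (ratio 0.999, interval from 0.671), with UMIs in 34 of 78 and 9 of 21 cells. Gzma was concentrated in few cells, with 349 UMIs in 15 members, of which the leading cell held 36.4% and the first 5 held 81.4%. Among these 15 cells, 14 also had Gzmb, 8 had Ncr1 and 10 had at least 3 adaptor UMIs. Prf1, the pore-forming perforin, was low, with 18 UMIs in 9 and 14 in 7 cells (ratio 0.396). Cst7, an inhibitor of granule proteases, was at 0.247, and Srgn, the granule proteoglycan, moved from 0.566 to 1.02 without the cells set apart.

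Cytokine genes were few. Ifng was detected in 53 members with at most 17 UMIs, in 39 of 78 CD3-positive and 14 of 21 CD3-negative cells, at 336 and 648 CPM (ratio 0.519, and 0.433 without those set apart). Ltb (lymphotoxin beta) was detected in 83 members. Il4, the type 2 cytokine, had 18 UMIs in 11 members, of which 10 were CD3-positive, 9 had no coreceptor UMI and 7 also had Ifng; 1 of the 11 was a set-apart cell. All 10 UMIs of Il13 lay in 1 of the cells with basophil proteases. All 8 UMIs of Il17a and both of Il22 lay in 1 CD3-positive cell. Il5, Il10, Il17f and Il21 had no UMI in the 479784 UMIs of the class. Foxp3, the regulatory T cell factor, had 5 UMIs in 3 CD3-positive cells, all 3 with Ctla4 and 1 with Cd4.

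Residence, activation and growth genes varied among members. Cxcr6 had UMIs in 45 of 78 and 10 of 21 cells (ratio 2.16, and 1.80 without those set apart) and Cd69, a retention and activation marker, in 44 and 12 (ratio 0.624, and 1.52 without those set apart), whereas Itgae (CD103), Tigit, Cx3cr1 and Ccr8 had none in the class. Of the 12 immediate early genes 0 were at 2 or more and 2 at 0.5 or less (median log2 -0.34), Nfkbia at 0.302 and the T cell activation gene Nr4a1 at 0.308. The remaining lists held few measured genes or lay near the middle. Cytokine receptors had a median of -0.33 over 8 genes with 1 past the fold, tissue residence -0.51 over 7 genes with 1 higher and 2 lower, innate lymphoid genes -0.28 over 5 with 1 in each direction (-1.65 over 3 with 1 higher and 2 lower without those set apart), and leukocyte genes -0.10 over 9. Egr1, an immediate early gene, turned from 0.803 to 2.08 without the cells set apart. Of 8 class I antigen presentation genes none was past the fold (median 0.00). Proliferation was rare: 14 members had any UMI of 8 mitotic genes, 3 had at least 5, and all 18 UMIs of Pclaf came from 1 cell.

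**Figure D4:**
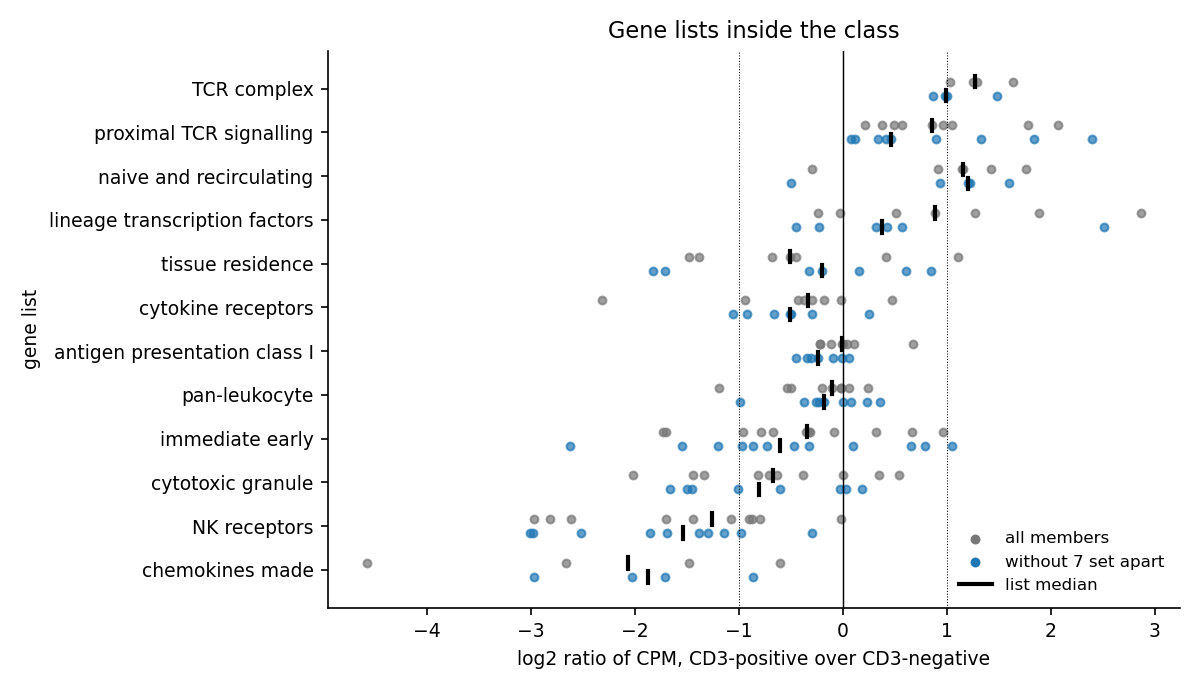
Log2 ratio of CPM (CD3-positive over CD3-negative members) of the measured genes of 12 lists, for all members (grey) and without the 7 set apart (blue); black ticks are list medians and dotted lines the ratio of 2 in each direction. Medians run from 1.27 for the receptor complex to -2.07 for chemokines in all members.

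Cells with a UMI were also compared at equal depth, thinned to 1500 UMIs and without those set apart, since the subsets differed in depth. Fcer1g was then seen in 12.4% of CD3-positive and 93.6% of CD3-negative cells, Ncr1 in 4.25 and 54.2%, Xcl1 in 42.5 and 85.6% and Ccl5 in 73.7 and 99.8%. In the other direction Bcl11b was seen in 27.7 and 4.44%, Lat in 32.2 and 5.55% and Cd28 in 28.9 and 8.78%. Gzmb (29 and 26.5%) and Cd69 (37.4 and 33.2%) were close. In mesenchymal cells at that depth, 9 shallower ones left out, the shares were 0.0142% for Ncr1 and 0.402% for Ccl5. Counted without thinning, Fcer1g was seen in 12 of 78 and 21 of 21 cells.

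**Figure D5:**
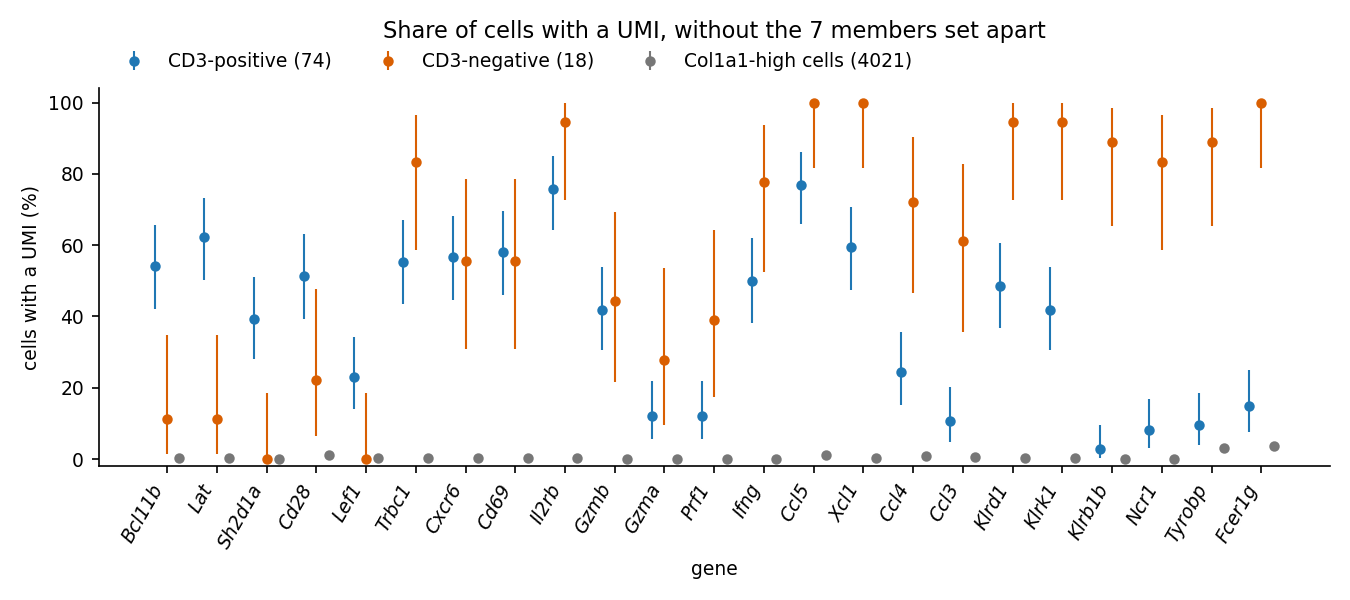
Share of cells with a UMI (percent, unthinned) of 23 genes in 74 CD3-positive (blue) and 18 CD3-negative (orange) members and in 4021 Col1a1-high cells (grey); bars are exact binomial 95% intervals. Receptor adaptors such as Lat lie higher in CD3-positive cells, Ncr1 (15 of 18) and Fcer1g (18 of 18) in CD3-negative cells, and Gzmb and Cd69 at similar shares.

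Against all 7234 other CCl4 cells, genes of lymphocyte function led the genes outside the rule that had a UMI in at least 10% of members. Of 15462 genes (median log2 ratio 0.23) 31.9% were at a ratio of 2 or more and 17.6% at 0.5 or less. Counts under 3 were again raised to 3, so genes with hardly any UMIs in the small class could reach 2 or more. Among B and plasma cell genes 5 of 6 measured were at 2 or more, while 4 of 7 had no UMI in members. The 31.9% thus includes such genes, and single genes past the fold are to be read against it with that limit. All 12 measured NK receptor genes (median log2 9.11), all 9 proximal signalling genes (7.75), all 6 of the receptor complex (7.73), 10 of 11 chemokine receptor genes (4.62) and all 6 checkpoint genes (3.61) were at 2 or more, whereas 2 of 12 proliferation genes (-0.00) and 3 of 12 immediate early genes (0.07) were. In the chemokine receptor and checkpoint lists Cx3cr1, Ccr8 and Tigit had no UMI in the class, so these counts can rest in part on the floor. Among genes with a UMI in under 10% of members, those of the 3 granule-bearing cells set apart also had high ratios. The 4 measured genes of the mast cell and basophil list had a median of 7.21. Among genes with a UMI in at least 10% of members, Gzma (727 CPM, ratio 3871), Cd40lg, Il2ra, Trgv2 and Ifng (409 CPM, ratio 1701) led. Ncr1, Gzmb and Xcl1 (ratio 1323) followed. The member UMIs of these genes alone met the minimum for a measured gene. Cd40lg had 40 in members and 1 in other cells, Il2ra 33 and 2, and Trgv2 35 and 4. For Cd40lg and Il2ra the ratio rests on the floor of 3. Among genes rare in other cells, the minimum and the 10% limit thus favour those high in members, so this order is a description. The minimum acts the same way in the list counts above. Il2rb, Gzma, Ifng, Xcl1 and Cxcr6 had no UMI in 134 macrophages and monocytes, 74 B cells or 58 neutrophils, each selected by their own marker genes. Ltb was shared with B cells, at 711 CPM in the class (interval 637 to 790) and 844 CPM in B cells. Ptprc was at 834 CPM in the class, 502 in macrophages and monocytes and 1164 in neutrophils. Of 10 interferon-stimulated genes 0 were at 2 or more and 6 at 0.5 or less, among them Ifi27l2a (361 CPM, ratio 0.248) and Bst2 (148 CPM, ratio 0.417).

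The healthy library gave too few cells for a comparison. The same rule found 3 members among 5685 cells (0.0528%, interval 0.0109 to 0.154%), with 9308, 13340 and 15284 UMIs. All 3 were CD3-positive, 1 with Cd8a (5 UMIs), 1 with Cd4 (1 UMI) and 1 with neither, and they had 142, 23 and 16 UMIs of Ccl5. They also carried endothelial genes: summed over the 3 cells, Clec4g had 111 UMIs, Ptprb 65, Kdr 44 and Stab2 13, each seen in all 3. Lyve1, Cdh5 and Pecam1 had 15, 12 and 9 UMIs, each in 2 cells. The limit for setting cells apart was not applied to the healthy cells, and the part of doublets in these values was not tested. The bead removal of CD45-positive cells came before capture, and how much it removed in each library was not measured, so the shares of 0.0528% and 1.36% cannot be told apart from a difference in that step. Between the libraries 10 barcodes were shared, 0 of them among members.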

How the data were processed

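Per the file headers, the matrices that the authors deposited hold UMI counts, as whole numbers for each gene in each cell, made with Cell Ranger 3.1.0 (healthy, 51122846 UMIs in 6297 cells) and 6.0.1 (CCl4, 97611831 UMIs in 8460 cells). The labels list a human and a mouse build and the gene identifiers are mouse, so no coordinates are given. The depth behind shares is given as UMIs per cell.

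For each population the UMIs of a gene were added up and expressed as CPM of all its UMIs. Ratios carry exact conditional binomial intervals, shares exact Clopper-Pearson intervals and CPM exact Poisson intervals, all at 95%. A gene was measured with at least 30 UMIs over both populations. Genes were named from 32 lists or as the 15 largest ratios in each direction with a UMI in at least 10% of cells, without the 11 rule genes, mitochondrial, ribosomal and sex-linked genes. Macrophages and monocytes needed at least 2 UMIs of Csf1r, B cells 2 of Cd79a, neutrophils 10 of S100a8, S100a9 and Csf3r, and mesenchymal cells more than 10 of Col1a1. Members and lists were chosen with earlier results of these data known. Doublets were not removed; Scrublet in scanpy 1.11.5 was an alternative, as were TMM factors of edgeR 4.0.16, other limits and thinning. Ratios and thinning were tested on simulated data. Python 3.11.15, numpy 2.4.6, scipy 1.17.1 and R 4.3.3 were used.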

Additional observations from a re-analysis of the deposited data

How the results depend on the processing

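Each of 13 main values was recomputed under up to 16 settings, of which leaving out the 7 cells set apart, moving the 9 adaptor-bearing cells and thinning to 1500 UMIs were chosen after seeing the data. Of 156 recomputed values 142 stayed within the counting interval or within 1.5 times the count. The share of the class ran from 1.27 to 1.49% and CD3-positive cells from 69 to 80.9% of members. Thinning to 800 UMIs gave 14.1% CD8 and 84.1% without coreceptor, and to 1500 UMIs 76.6% without. The 167 genes at 2 or more became 110 with at most 2 Col1a1 UMIs, 103 without the cells set apart and 111 with the 9 cells moved. With at least 10 UMIs a gene the counts were 297 and 576, and with at least 100 they were 13 and 22, as the genes tested changed. The NK receptor median was -2.05 with the 9 cells moved, which had been picked by genes of that list. The immediate early median (-0.34) was -0.85 with at most 2 Col1a1 UMIs, -0.92 without the highest doublet scores and -0.67 with every cell weighted equally. Of single genes, Slpi turned from 2.01 to -1.91 and -1.95 (log2) under the first 2 of these, Hist1h2ap to -3.29 with the 9 cells moved and Ier3 to 0.34 with a marker sum of at least 6; in each, most UMIs of a subset lay in 1 cell. The smaller subset holds 21 cells and 112672 UMIs, which limits every ratio. No paired analysis was possible because each group has 1 library.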
